A study of Mus musculus with 24 samples.

Results

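Secreted growth factors of the VEGF and PDGF families, and the co-receptor neuropilin 1, were followed in mouse fibroblast lines in which the integrated stress response was switched on, left off or genetically interrupted. The 6 genes were Vegfa, Vegfb, Vegfc, Nrp1, Pdgfa and Pdgfb. They were found by their symbols in the platform annotation, with every probe set that carries 1 of these symbols taken. A probe set is a group of short array probes that together read 1 transcript. This gave 7 of the 12422 probe sets on the array, 1 for each gene and 2 for Nrp1, and 0 of the 7 were annotated to a further gene.

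Messenger RNA was measured on 24 oligonucleotide arrays in 12 groups of 2 arrays. On the 12 tunicamycin arrays, fibroblast lines of wild-type, ATF4-/- and PERK-/- genotype were left untreated or received 2 ug/ml of tunicamycin, an inhibitor of N-linked glycosylation that causes stress in the endoplasmic reticulum (ER). Treatment lasted 6 h in wild-type and ATF4-/- cells, and the labels give no duration for PERK-/- cells. On the 12 Fv2E-PERK arrays, the cells expressed Fv2E-PERK, a chimera whose kinase part is activated by the dimerizer AP20187. The line called SS has unmutated (wild-type) eIF2alpha and lacks endogenous PERK (PERK-/-). The line called AA has mutant eIF2alpha, and its own PERK status is not stated in the labels. AP20187 was absent (untreated) or present for 4 h or 8 h, its dose being written as 2 nm in the labels. According to the labels, PERK-/- cells served as the host because clones with strong expression of the chimera could not be made in wild-type cells. Each genotype is 1 cell line, so an effect of genotype and any other difference between 2 lines cannot be told apart. Nothing in the labels says whether a pair of arrays stems from separate cultures. P-values therefore reflect only how far these arrays lie apart, a spread that may be technical.

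PERK is an ER stress sensor that phosphorylates the translation factor eIF2alpha. Phosphorylation slows general protein synthesis and raises translation of the transcription factor ATF4. VEGF-A drives the growth and permeability of blood vessels through the receptors Flt1 and Kdr, VEGF-B binds Flt1, and VEGF-C acts mainly through Flt4 on lymphatic vessels. Neuropilin 1 has no kinase of its own and presents VEGF to Kdr, and it also binds class 3 semaphorins. PDGF-A and PDGF-B form dimers that act on the receptors Pdgfra and Pdgfrb of fibroblasts and other mesenchymal cells, in which PDGF drives division and migration.

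Promoter sequences of Vegfa, Nrp1 and Vegfc are shown because these 3 genes had the largest differences between untreated AA and SS cells among the members. RefSeq promoter windows (mouse build GRCm38.p6) were held for 5 of the 6 genes, Pdgfb being without one in the table used, and gave 7 windows, with 2 each for Vegfa and Pdgfa. The 250 bases before the annotated start are printed on the transcribed strand, and capitals mark GC boxes (GGGCGG on either strand), the binding letters of Sp1-type factors.
Vegfa, chr17:46032378-46032627, minus strand: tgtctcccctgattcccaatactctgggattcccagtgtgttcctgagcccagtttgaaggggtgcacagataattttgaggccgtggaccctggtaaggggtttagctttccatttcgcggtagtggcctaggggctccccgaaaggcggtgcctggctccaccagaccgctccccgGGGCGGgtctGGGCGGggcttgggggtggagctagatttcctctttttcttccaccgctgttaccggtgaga
Nrp1, chr8:128358823-128359072, plus strand: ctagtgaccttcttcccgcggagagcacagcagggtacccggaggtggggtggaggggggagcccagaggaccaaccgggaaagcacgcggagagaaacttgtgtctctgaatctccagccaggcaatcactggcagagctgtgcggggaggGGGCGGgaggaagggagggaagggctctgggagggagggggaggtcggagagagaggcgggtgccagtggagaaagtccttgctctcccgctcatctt
Vegfc, chr8:54077282-54077531, plus strand: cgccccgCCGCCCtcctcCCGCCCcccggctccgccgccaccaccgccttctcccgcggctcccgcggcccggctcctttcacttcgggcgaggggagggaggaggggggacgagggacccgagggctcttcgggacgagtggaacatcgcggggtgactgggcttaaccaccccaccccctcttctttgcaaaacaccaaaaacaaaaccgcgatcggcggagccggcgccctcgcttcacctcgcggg
The Vegfa window has GC boxes that begin 72 and 62 bases before the start, the Nrp1 window has 1 at 98 bases, and the Vegfc window has 2 at 243 and 232 bases. A GC box was present in 7 of the 7 member windows and in 32.7% of 32851 promoter windows of the same length. The other letters searched on both strands, none of which contains another, were ACGTG, the core of the hypoxia response element, TGATGNAA, the core of the C/EBP-ATF composite element bound by ATF4, and TGACGTCA, the site of CREB and ATF proteins. ACGTG stood in 1 member window, against 16.6% of all promoters. That is the Vegfa window not printed (chr17:46025164-46025413, minus strand), which lies downstream of the start of the printed one. The printed Vegfa window has 0. The downstream window is also 1 of the 7 counted for GC boxes. TGATGNAA and TGACGTCA stood in 0 member windows, against 3.45% and 1.55% of all promoters, which says only that these letters are not in these windows.

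Each value is a ratio, the level of a probe set divided by the median of that probe set across the 24 arrays, and levels of different genes cannot be set against each other. No value lies below 0.01, which is referred to as the floor. Per array, 22.6% to 25.6% of values sat there in the tunicamycin set and 0.00805% to 0.105% in the Fv2E-PERK set. Levels were therefore compared only within each set of 12 arrays. Probe sets never at the floor in a set were tested, which left 7387 on the tunicamycin arrays, with 5 of the 7 member probe sets, and 12384 on the Fv2E-PERK arrays, with 7 of 7. Pearson r between the 2 arrays of a group ranged from 0.711 to 0.786 in the tunicamycin set and from 0.690 (AA cells at 8 h) to 0.854 in the Fv2E-PERK set. The number of arrays limits the precision. Atf4, Ddit3, Trib3 and Asns, genes of the stress response, served as a check on the treatments. Ddit3 (CHOP) rose by 3.64 on the log2 scale in wild-type cells on tunicamycin (limma adjusted p = 0.00104) and by 1.85 and 2.37 in SS cells at 4 h and 8 h (limma adjusted p = 0.00259 and 0.000860). In AA cells its change was 0.08 at 4 h and -0.18 at 8 h, and in PERK-/- cells on tunicamycin 0.40 (limma adjusted p = 0.888). In wild-type cells on tunicamycin Trib3 rose by 1.81 (limma adjusted p = 0.0153), while Atf4 (0.90) and Asns (0.67) did not pass (limma adjusted p = 0.0576 and 0.206). In PERK-/- cells on tunicamycin Atf4 (0.67), Trib3 (0.81) and Asns (0.73) were higher but did not pass (limma adjusted p = 0.456, 0.503 and 0.494). Their unadjusted limma p was 0.00363, 0.00772 and 0.00488. In ATF4-/- cells on tunicamycin Ddit3 rose by 2.57 (limma adjusted p = 0.00487). Atf4, Trib3 and Asns changed there by 0.03, -0.13 and 0.01 and were not called. In SS cells at 8 h all 4 genes rose, Atf4 by 1.03, Trib3 by 2.06 and Asns by 1.06 (limma adjusted p = 0.00812, 0.00650 and 0.0135), and at 4 h all but Asns (limma adjusted p = 0.0646). Markers never at the floor on the tunicamycin arrays were 8 of 10 for fibroblasts, 4 of 5 for smooth muscle and pericytes, 2 of 7 for endothelial cells, 2 of 5 for macrophages and leukocytes and 1 of 4 for epithelial cells. The share of their values at the floor was 5.0%, 13.3%, 41.7%, 38.3% and 29.2%, and on the Fv2E-PERK arrays 0 markers of any type had a floor value. The endothelial gene Vwf and the macrophage gene Lyz2 sat at the floor on all 12 tunicamycin arrays, whereas Kdr, Emcn, Cd68 and Csf1r from the same lists were at the floor on 0. In bulk RNA, fewer cells of a type and less RNA per cell cannot be told apart.

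In SS cells given AP20187, Nrp1 fell at both times, while the ligands among the 6 genes moved less and in different directions. Vegfd, a ligand outside the 6 genes, fell by more than Nrp1 at 8 h and is described below. Nrp1 fell 3.11- and 2.93-fold at 4 h and 6.50- and 6.21-fold at 8 h on its 2 probe sets, and these were the member changes that passed the test against untreated SS cells. Vegfa was about 2.01-fold higher at 4 h, which did not pass. In AA cells 0 of 7 member probe sets were called at either time. Tests were made with limma on log2(ratio + 0.25), with Benjamini-Hochberg adjustment over all probe sets tested, and a change is called where the adjusted p is under 0.05. Of the 7 member probe sets 2 were called at 4 h, against 4.76% of all probe sets tested, and 2 at 8 h, against 7.56%. Unadjusted p lay under 0.05 for 6 member probe sets at 4 h and 4 at 8 h, and for 2510 and 2759 of all 12384. In AA cells 0% of all probe sets were called at 4 h and 0% at 8 h (482 and 847 of 12384 had an unadjusted limma p under 0.05), and 0 member probe sets had an unadjusted p under 0.05 at either time. The responses at 4 h and 8 h share the same untreated arrays.

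**Figure D1:**
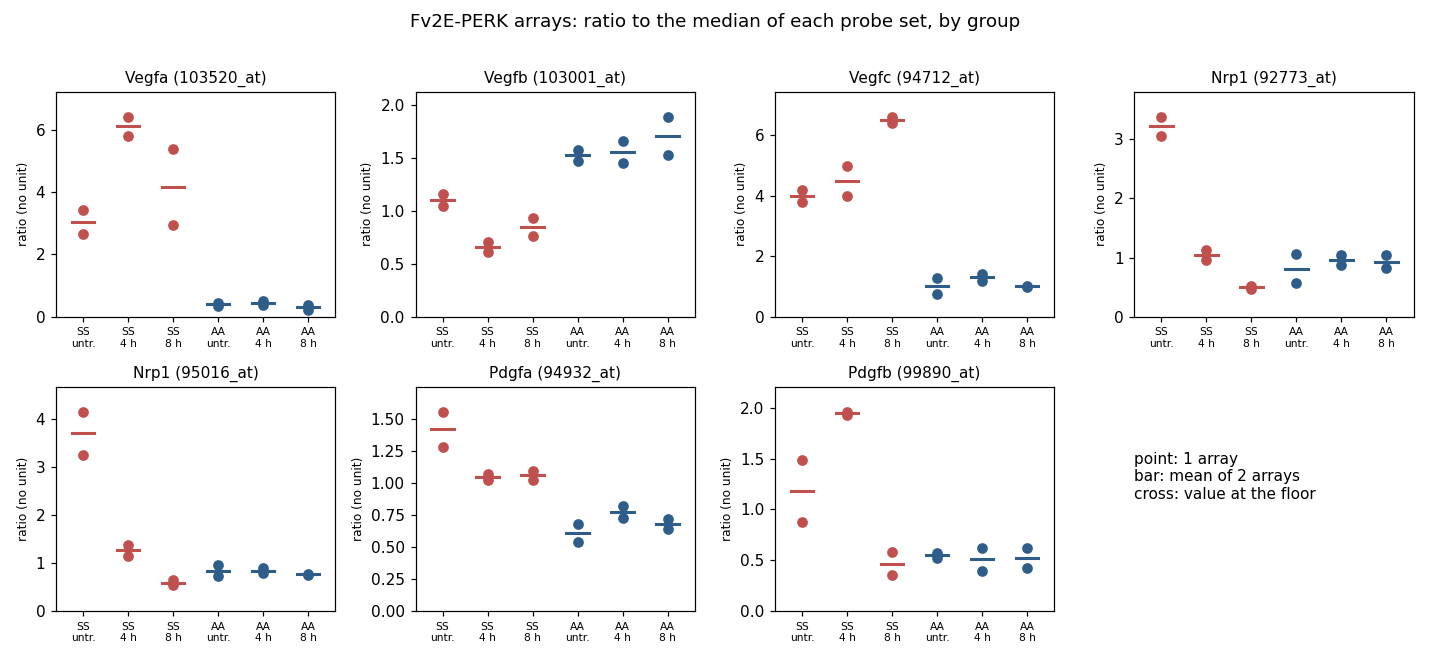
Ratios of the 7 member probe sets on the Fv2E-PERK arrays. Each panel is 1 probe set, the y axis is the ratio to its median over 24 arrays (no unit, from 0), the x axis gives untreated cells (untr.), 4 h and 8 h of AP20187 in the SS line (red) and the AA line (blue), points are arrays and bars are means of 2 arrays. Nrp1 steps down from 3.06 to 3.38 in untreated SS cells to 0.473 to 0.518 at 8 h on probe set 92773_at, while the AA points of Vegfa and Vegfc lie below the SS points of the same gene.

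Vegfa (103520_at), the main angiogenic ligand, had ratios of 3.43 and 2.67 in untreated SS cells, 6.43 and 5.82 at 4 h and 5.41 and 2.95 at 8 h of AP20187. Both 4 h arrays lay above every untreated and 8 h array, while the 8 h arrays overlapped the untreated ones and lay far apart from each other. The change on the log2(ratio + 0.25) scale was 0.96 ± 0.28 (SE) at 4 h, with a limma adjusted p of 0.0908, and 0.38 ± 0.28 at 8 h, with 0.492. In AA cells Vegfa began at 0.444 and 0.351 and had 0.382 and 0.491 at 4 h and 0.223 and 0.365 at 8 h, so that the treated arrays overlapped the untreated ones at both times. The response in AA minus that in SS cells was -0.87 ± 0.39 at 4 h and -0.64 ± 0.39 at 8 h, neither called (limma adjusted p = 0.401 and 0.419).

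Vegfb (103001_at), the Flt1 ligand, went from 1.05 and 1.15 in untreated SS cells to 0.606 and 0.700 at 4 h and 0.762 and 0.932 at 8 h. These 3 groups did not overlap, the 4 h arrays being lowest. The change was -0.58 ± 0.16 at 4 h (limma adjusted p = 0.0819) and -0.30 ± 0.16 at 8 h (0.318), and neither was called. AA cells began with Vegfb ratios of 1.57 and 1.47 and had 1.66 and 1.44 at 4 h, then 1.52 and 1.88 at 8 h, with overlap between all 3 groups. Vegfc (94712_at), the lymphatic ligand, was 3.79 and 4.18 in untreated SS cells, 4.98 and 3.98 at 4 h, and 6.60 and 6.40 at 8 h. The 8 h arrays lay above the other SS arrays, and the change of 0.67 ± 0.22 had a limma adjusted p of 0.115. In AA cells Vegfc stayed between 0.742 and 1.42 on the 6 arrays, with the treated arrays overlapping the untreated ones.

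Nrp1, the co-receptor, was read by 2 probe sets that followed each other across arrays, with Pearson r = 0.986 over the 12 tunicamycin arrays and 0.956 over the 12 Fv2E-PERK arrays, given as a description. Probe set 92773_at had ratios of 3.06 and 3.38 in untreated SS cells, 1.12 and 0.955 at 4 h, and 0.518 and 0.473 at 8 h. Probe set 95016_at had 3.25 and 4.16, then 1.38 and 1.15, then 0.547 and 0.646. On both, untreated, 4 h and 8 h arrays formed 3 groups without overlap, in descending order of time. The fall at 4 h was -1.43 ± 0.23 on 92773_at (limma adjusted p = 0.0137) and -1.38 ± 0.18 on 95016_at (0.00667). At 8 h it was -2.22 ± 0.23 (limma adjusted p = 0.00171) and -2.22 ± 0.18 (0.000827). In AA cells 92773_at began at 1.06 and 0.571, with 1.05 and 0.870 at 4 h and 1.05 and 0.818 at 8 h, and 95016_at was 0.956 and 0.726, 0.792 and 0.896, and 0.770 and 0.763. Treated and untreated AA arrays overlapped on both probe sets, with changes from -0.09 to 0.22 that were not called.

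The difference of responses, AA minus SS, was 2.40 ± 0.32 on 92773_at and 2.12 ± 0.25 on 95016_at at 8 h, both called (limma adjusted p = 0.0140 and 0.0107), the 2 member probe sets called against 2.08% of all probe sets. At 4 h it was 1.65 ± 0.32 and 1.39 ± 0.25, with limma adjusted p of 0.0764 and 0.0655, so that 0 member probe sets were called against 0.484% of all, and 4 had an unadjusted p under 0.05, as did 1581 of all 12384. Untreated SS cells stood above untreated AA cells at the start, and within each probe set both SS arrays at 8 h lay below every AA array. The 4 h call on 92773_at was lost when any 1 of the 4 arrays compared was left out (adjusted p 0.0535 to 0.0885), and that on 95016_at without the second 4 h array (0.0554). The 8 h difference of responses on 92773_at was lost without the second untreated SS array (0.0541), the first 8 h SS array (0.0506) or the second (0.0702). Fibroblast markers moved with Nrp1. The mean ratio of the 10 genes was 1.08 to 1.15 in untreated SS cells, 0.572 to 0.612 at 4 h and 0.351 to 0.382 at 8 h, against 1.13 to 1.46 over the AA arrays, and 7 of the 10 had both 8 h SS arrays below both untreated ones. Of the other markers 1 of 7 endothelial, 2 of 5 leukocyte, 1 of 4 epithelial and 2 of 5 smooth muscle genes did so. The share of all probe sets with such a separation is not given for these or the later marker counts, which describe the markers only. The part of these markers in the Nrp1 result was not tested.

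Pdgfa (94932_at), which forms the PDGF-A chain, had ratios of 1.28 and 1.56 in untreated SS cells, 1.02 and 1.07 at 4 h and 1.02 and 1.09 at 8 h. Both treated groups lay below the untreated arrays and overlapped each other. The changes of -0.36 ± 0.16 and -0.35 ± 0.16 were not called (limma adjusted p = 0.237 and 0.237). AA cells began at 0.677 and 0.538, with 0.823 and 0.726 at 4 h, then 0.641 and 0.720 at 8 h, so that Pdgfa was higher on both AA arrays at 4 h and lower on both SS arrays. The difference of these responses was 0.62 ± 0.22, which did not pass (limma adjusted p = 0.297).

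Pdgfb (99890_at), the PDGF-B chain, was 1.48 and 0.878 in untreated SS cells, 1.96 and 1.92 at 4 h, and 0.579 and 0.358 at 8 h. The 4 h arrays lay above and the 8 h arrays below both untreated arrays. Neither time was called against untreated cells, with changes of 0.65 ± 0.26 at 4 h (limma adjusted p = 0.214) and -0.98 ± 0.26 at 8 h (0.0626). The step from 4 h to 8 h, a comparison added after the member values were seen, was 4.15-fold down on the scale of group means, and -1.63 ± 0.26 in log2 (limma adjusted p = 0.0479). It was the 1 member probe set called in that comparison, against 0.509% of all probe sets, and was lost without either 4 h array (0.231 and 0.254) or either 8 h array (0.113 and 0.269), and under 4 other settings given in the closing section. Nrp1 had 8 h minus 4 h changes of -0.79 ± 0.23 and -0.84 ± 0.18 (limma adjusted p = 0.181 and 0.0862), which were not called. In AA cells Pdgfb lay between 0.400 and 0.623 on the 6 arrays, with overlap at both times.

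**Figure D2:**
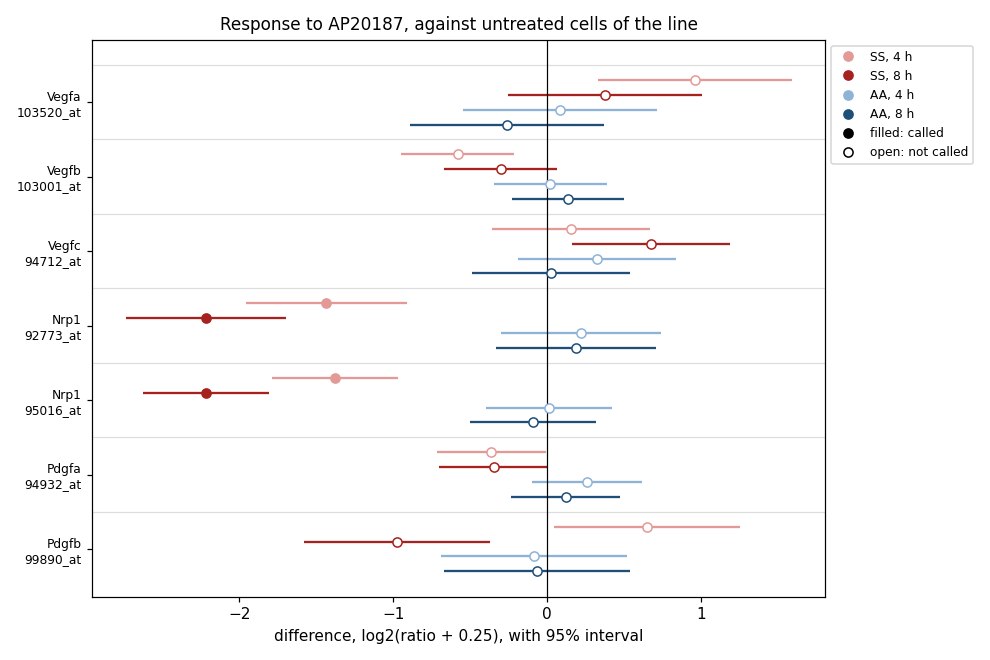
Changes of the 7 member probe sets on AP20187, against untreated cells of the same line. The x axis is the difference in log2(ratio + 0.25), bars are 95% intervals from limma with 2 arrays a group, red is SS and blue AA at 4 h (pale) and 8 h (dark), and filled points are called. The filled points are the 4 of Nrp1 in SS cells, from -1.38 to -2.22, and the AA intervals of all 7 probe sets include 0.

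Untreated AA and SS cells differed in most members, in the direction of less transcript in AA cells. Vegfa was 7.67-fold lower, Nrp1 3.96- and 4.41-fold lower, Vegfc 3.95-fold lower and Pdgfa 2.33-fold lower in AA than in SS cells. These 5 of 7 member probe sets were called, against 12.5% of all probe sets tested. Vegfb was the exception in direction, 1.38-fold higher in AA cells, and with Pdgfb, 2.15-fold lower, was not called. The untreated SS values entered here are those of the AP20187 responses in SS cells too.

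For Vegfa the untreated AA arrays (0.444 and 0.351) lay far below the SS arrays (3.43 and 2.67), with a difference of -2.34 ± 0.28 (limma adjusted p = 0.00137). The ratio lay between 0.223 and 0.491 on the 6 AA arrays and between 2.67 and 6.43 on the 6 SS arrays, so the lines did not overlap whatever the treatment. Vegfc was 1.27 and 0.742 in AA and 3.79 and 4.18 in SS cells, a difference of -1.78 ± 0.22 (limma adjusted p = 0.00191). The Vegfc lines did not overlap on treated arrays either. The Nrp1 differences were -1.74 ± 0.23 and -1.86 ± 0.18 (limma adjusted p = 0.00219 and 0.000534). Pdgfa differed by -0.96 ± 0.16 (limma adjusted p = 0.00587), a call lost without the second untreated AA array (0.0530). Pdgfb differed by -0.81 ± 0.26 (limma adjusted p = 0.0849) and Vegfb by 0.39 ± 0.16 (0.154). Fibroblast markers had a mean ratio of 1.13 to 1.39 in untreated AA cells and 1.08 to 1.15 in untreated SS cells. Of the 10, 1 was lower and 4 were higher on both AA arrays. Lower on both AA arrays were 1 of 7 endothelial, 1 of 5 leukocyte, 1 of 4 epithelial and 1 of 5 smooth muscle markers. Higher on both were 0, 3, 2 and 2. The mean ratio of leukocyte markers was 1.21 to 1.41 in untreated AA and 0.582 to 0.705 in untreated SS cells. For endothelial, epithelial and smooth muscle markers these ranges overlapped between the lines. The part of the markers in these differences was not tested.

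No member probe set passed the test on tunicamycin in any line. Of 5 tested, 0 were called in wild-type, ATF4-/- or PERK-/- cells by limma, against 0.839%, 0.42% and 0% of all probe sets, and 1, 0 and 0 had an unadjusted p under 0.05. Of all 7387 probe sets 792, 641 and 526 had such a p in wild-type, ATF4-/- and PERK-/- cells, and in PERK-/- cells 0 were called. The difference in response from wild-type cells was called for 0 of 5 member probe sets and 0% of all probe sets in ATF4-/- cells and for 0 of 5 and 0% in PERK-/- cells, with 363 and 563 probe sets, and 0 members in either, at an unadjusted p under 0.05. The untreated wild-type arrays are shared by these contrasts. Without any filter on floor values, limma called 13 probe sets for ATF4-/- and 11 for PERK-/- cells in the differences of response, and with all 24 arrays fitted together 4 and 34, with 0 members among them in each.

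**Figure D3:**
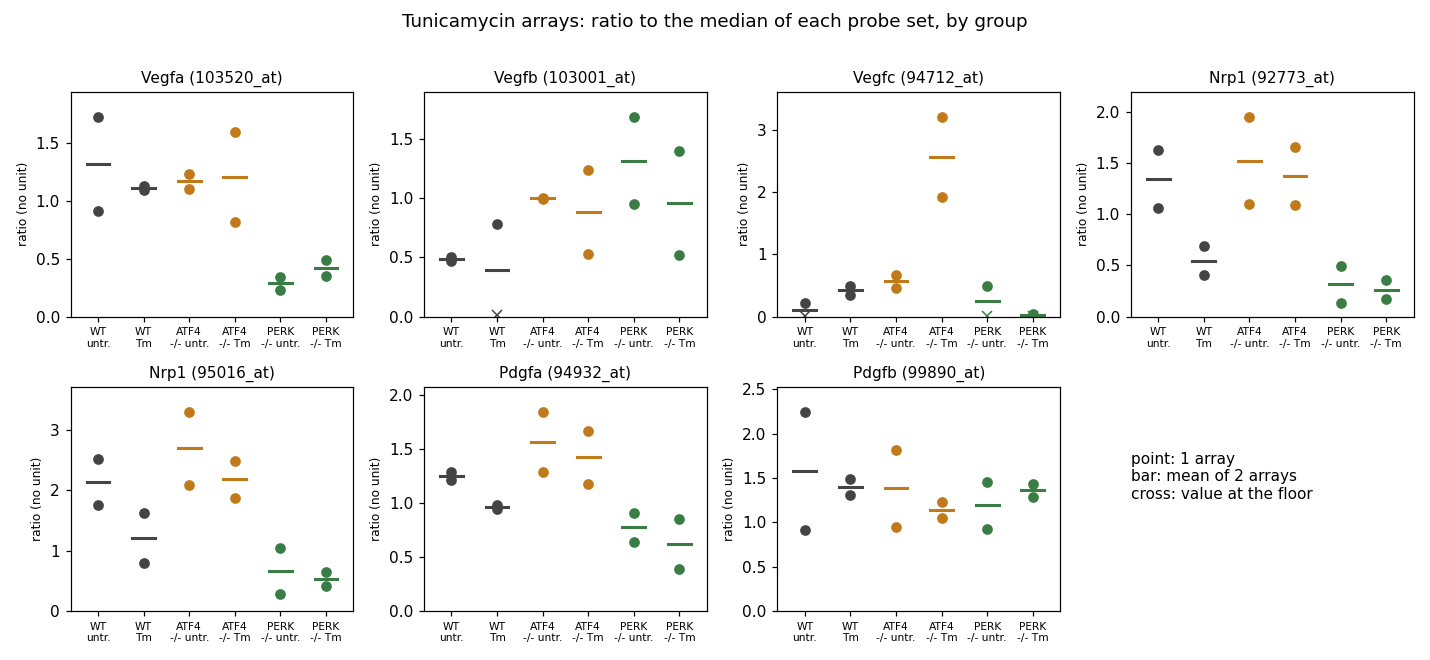
Ratios of the 7 member probe sets on the tunicamycin arrays. Each panel is 1 probe set, the y axis is the ratio to its median over 24 arrays (no unit, from 0), the x axis gives untreated (untr.) and tunicamycin-treated (Tm) cells of the wild-type (grey), ATF4-/- (orange) and PERK-/- (green) lines, points are arrays, bars are means of 2 arrays and crosses are values at the floor. Vegfa lies lower on all 4 PERK-/- arrays (0.233 to 0.489) than on the other 8 arrays (0.811 to 1.72).

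Vegfa in wild-type cells had ratios of 1.72 and 0.907 without tunicamycin and 1.13 and 1.09 with it. ATF4-/- cells had 1.23 and 1.10 without and 1.59 and 0.811 with it, and PERK-/- cells 0.343 and 0.233 without and 0.489 and 0.353 with it. Treated arrays overlapped untreated ones in wild-type and ATF4-/- cells and lay above them in PERK-/- cells. The changes were -0.15 ± 0.30, -0.02 ± 0.30 and 0.32 ± 0.30 (limma adjusted p = 0.941, 0.995 and 0.946). The 95% interval in wild-type cells ran from -0.83 to 0.52.

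Nrp1 was lower on both treated wild-type arrays on both probe sets. Probe set 92773_at had 1.63 and 1.06 untreated and 0.687 and 0.410 treated, and 95016_at had 2.52 and 1.75 untreated and 1.63 and 0.789 treated. The changes, -0.997 ± 0.384 and -0.75 ± 0.45, did not pass (limma adjusted p = 0.367 and 0.637). In ATF4-/- cells 92773_at was 1.10 and 1.95 untreated and 1.09 and 1.66 treated, with overlap, and PERK-/- cells had 0.136 and 0.493 before against 0.168 and 0.358 after treatment, again with overlap. Probe set 95016_at had 2.09 and 3.30 against 1.87 and 2.49 in ATF4-/- cells, and 0.285 and 1.04 against 0.424 and 0.656 in PERK-/- cells. In wild-type cells on tunicamycin 5 of the 10 fibroblast markers were lower on both treated arrays, as were 2 of 7 endothelial, 1 of 5 leukocyte, 0 of 4 epithelial and 2 of 5 smooth muscle markers. The share of all probe sets that were lower in this way is not given, so these counts are a description. The part of these markers in the values was not tested.

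Pdgfa went from 1.28 and 1.22 to 0.943 and 0.980 in wild-type cells, a change of -0.31 ± 0.28 that was not called (limma adjusted p = 0.801). It was 1.85 and 1.28 against 1.67 and 1.18 in ATF4-/- cells and 0.909 and 0.641 against 0.852 and 0.391 in PERK-/- cells, with overlap in both lines. Pdgfb was 0.916 and 2.25 against 1.49 and 1.31 in wild-type, 1.82 and 0.951 against 1.23 and 1.05 in ATF4-/-, and 0.930 and 1.46 against 1.29 and 1.43 in PERK-/- cells. The treated Pdgfb arrays fell between or beside untreated arrays that were themselves far apart.

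Vegfb and Vegfc had floor values on the tunicamycin arrays and were not tested there. Vegfb was at the floor on the first treated wild-type array, with 0.779 on the second and 0.472 and 0.504 on untreated arrays. ATF4-/- cells had 0.996 and 1.004 without and 0.533 and 1.24 with tunicamycin, and PERK-/- cells had 1.69 and 0.949 without and 0.524 and 1.40 with it. Vegfc was 0.215 and at the floor in untreated wild-type cells and 0.490 and 0.354 in treated ones. In ATF4-/- cells Vegfc went from 0.662 and 0.468 to 3.21 and 1.92, without overlap and 4.54-fold apart in group means. In PERK-/- cells it was at the floor and 0.487 untreated, and at the floor and 0.042 treated. With no filter on floor values the Vegfc change in ATF4-/- cells was 1.76 ± 0.53, which did not pass (limma adjusted p = 0.474), and its difference from the wild-type response was 0.82 ± 0.75 (limma adjusted p = 1.0).

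Among untreated cells of these lines, PERK-/- cells held less Vegfa than wild-type cells. Vegfa was 4.56-fold lower, with a difference of -1.50 ± 0.30 (limma adjusted p = 0.0452), the 1 of 5 member probe sets called against 1.64% of all probe sets, and 3 had an unadjusted p under 0.05, as did 1167 of all 7387. The call was lost without the first untreated wild-type array (0.181) or either untreated PERK-/- array (0.108 and 0.187). Nrp1 was 4.27- and 3.21-fold lower in PERK-/- cells, with arrays that did not overlap and differences of -1.55 ± 0.38 and -1.50 ± 0.45 that were not called (limma adjusted p = 0.0904 and 0.149), although both were called when all 24 arrays were fitted together (0.0126 and 0.0233). Pdgfa, 1.61-fold lower, differed by -0.56 ± 0.28 (limma adjusted p = 0.379), and Pdgfb by -0.27 ± 0.37 (0.787). Of the 10 fibroblast markers 7 were lower on both untreated PERK-/- arrays than on both wild-type arrays, with a mean ratio of 1.22 against 2.05 to 2.64. So were 3 of 5 smooth muscle and pericyte markers (0.553 to 0.649 against 1.81 to 7.06), 3 of 7 endothelial markers (0.805 to 1.26 against 2.11 to 3.10), 1 of 5 leukocyte and 0 of 4 epithelial markers. These marker counts are a description, without the share of all probe sets that lay apart in this way. The part of these markers in the differences was not tested. Between untreated ATF4-/- and wild-type cells 0 of 5 member probe sets were called, against 0.0948% of all. Unadjusted limma p lay under 0.05 for 0 of the 5 and for 522 of all 7387. The member differences ran from -0.11 to 0.29. Vegfb, untested there, was 2.05-fold higher in ATF4-/- and 2.70-fold higher in PERK-/- cells than in wild-type cells, without overlap.

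**Figure D4:**
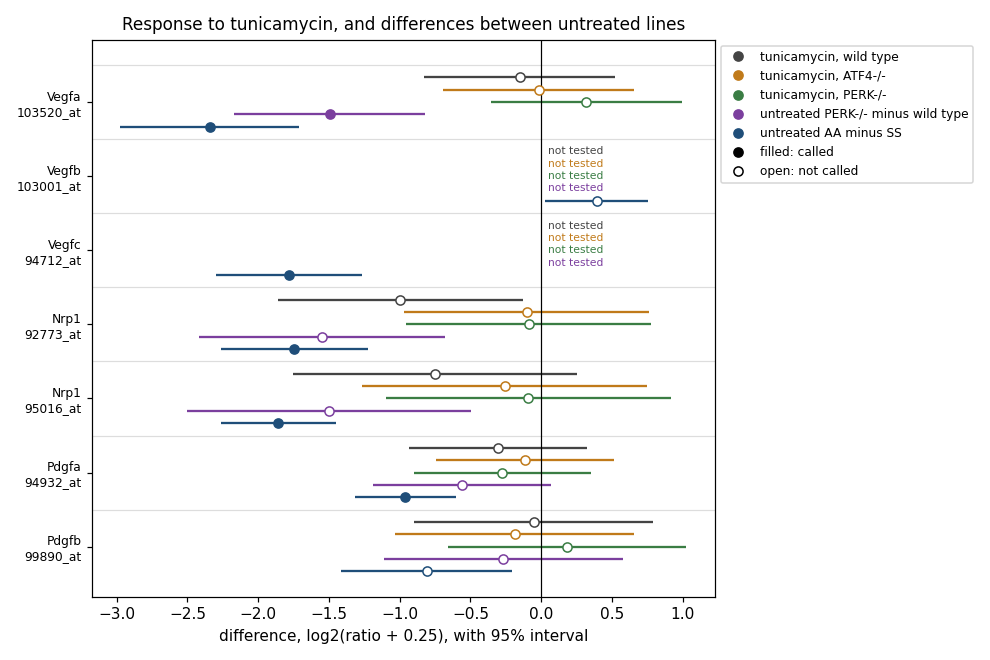
Differences in log2(ratio + 0.25) of the member probe sets on tunicamycin in wild-type, ATF4-/- and PERK-/- cells, and between untreated lines (PERK-/- minus wild type, AA minus SS). Bars are 95% intervals from limma with 2 arrays a group, filled points are called, and "not tested" marks probe sets with floor values. The called differences are Vegfa in PERK-/- cells (-1.50) and Vegfa, Vegfc, both Nrp1 probe sets and Pdgfa in AA cells (-0.96 to -2.34).

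Ordered by their group means, the tunicamycin arrays placed Vegfa highest in untreated wild-type cells and lowest in untreated PERK-/- cells, and the 4 wild-type and ATF4-/- groups overlapped their neighbours in this order. Nrp1 on both probe sets and Pdgfa were highest in untreated ATF4-/- cells and lowest in treated PERK-/- cells, with the first 3 groups overlapping. Pdgfb showed overlap between every neighbouring pair of groups. On the Fv2E-PERK arrays the 3 SS groups stood above the 3 AA groups for Vegfa, Vegfc and Pdgfa, and below them for Vegfb. Nrp1 and Pdgfb were mixed, with SS cells at 8 h at the bottom of the order for both genes.

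Of 4 further ligands listed, 2 were on the array. Vegfd (92365_at), a ligand of Flt4, was 2.92 and 2.94 in untreated SS cells, 1.44 and 1.72 at 4 h and 0.377 and 0.144 at 8 h. These 3 groups did not overlap, and the fall at 8 h was -2.68 ± 0.28 (limma adjusted p = 0.00173), while that at 4 h was -0.80 ± 0.28 and not called (0.146). The response in AA minus SS cells was 3.18 ± 0.39 at 8 h (limma adjusted p = 0.0110), lost without either untreated AA array (at most 0.0538). Vegfd was at the floor on all 8 wild-type and ATF4-/- arrays, and at 0.176 to 1.60 on the PERK-/- arrays. Pgf (92909_at), placental growth factor, which binds Flt1, was called in 0 of the 15 comparisons. It was 0.373 and 0.566 in untreated SS cells, 0.240 and 0.233 at 4 h, and 0.179 and 0.281 at 8 h. Its changes of -0.55 and -0.58 had unadjusted p of 0.0486 and 0.0401 and did not pass (limma adjusted p = 0.244 and 0.198).

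Of 7 receptor genes listed 5 were on the array (Flt1, Kdr, Flt4, Pdgfra and Pdgfrb), and 0 were called in any response to tunicamycin or AP20187. At an unadjusted p under 0.05, 4 of the 5 were lower in SS cells at 8 h and 2 at 4 h, with a median change of -0.57 at 8 h against 0.04 over all probe sets, of which 2759 of 12384 had such a p at 8 h. Pdgfra, the receptor of PDGF-A, which is also among the fibroblast markers, had the largest of these 4, -1.13 ± 0.35 (limma adjusted p = 0.0931), from 1.71 and 0.739 to 0.545 and 0.261. Kdr was lower in AA cells at 4 h, at 0.107 and 0.142 against 0.662 and 0.580 untreated, without overlap, a change of -1.22 ± 0.24 that did not pass (limma adjusted p = 0.569), and it was back at 0.721 and 0.916 at 8 h. Pdgfrb was higher in PERK-/- cells on tunicamycin, at 0.925 and 1.05 against 0.0818 and 0.596, and its change of 1.22 ± 0.37 did not pass either (limma adjusted p = 0.524). Between untreated lines, Pdgfrb was lower in PERK-/- than in wild-type cells, at 0.0818 and 0.596 against 2.43 and 1.63, a difference of -2.08 ± 0.37 (limma adjusted p = 0.0311) that was lost without either wild-type array or the first PERK-/- array (at most 0.152). Flt1 was lower in untreated AA cells, at 0.349 and 0.408 against 1.40 and 1.01 in SS cells, by 1.20 on the log2 scale (limma adjusted p = 0.0188), lost without the first SS or either AA array (at most 0.0986). Of 9 semaphorins and plexins on the array that pair with neuropilins, 0 were called in SS cells. At an unadjusted p under 0.05, 1 was lower at 4 h and 3 were lower at 8 h. Of all 12384 probe sets 2510 and 2759 had such a p at these times, and 4.76% and 7.56% were called. Sema3b was lower in untreated AA cells by 1.43 on the log2 scale (limma adjusted p = 0.0340), lost without 1 of 3 arrays (at most 0.160).

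Of 9 genes on the array for ligand processing and binding, Sparc, a matrix protein that binds PDGF and VEGF, fell in SS cells from 1.77 and 1.99 to 0.540 and 0.533 at 4 h and 0.385 and 0.380 at 8 h. The changes were -1.43 ± 0.17 and -1.75 ± 0.17 (limma adjusted p = 0.00495 and 0.00154), the first lost without the first 4 h array (0.0514), and Sparc was the 1 gene of this list called at each time. Of all probe sets 4.76% and 7.56% were called at these times. Plat, a plasminogen activator of the same list, was lower in untreated AA than SS cells by 1.19 on the log2 scale (limma adjusted p = 0.00284).

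Genes of the HIF pathway, through which low oxygen raises Vegfa, were followed in a list of 37, with 32 on the array. In SS cells 4 rose and 1 fell at 4 h, and 5 rose and 0 fell at 8 h, against 4.76% and 7.56% of all probe sets called. List medians were 0.03 and 0.08, against -0.03 and 0.04 over all probe sets. The 4 that rose at 4 h were Kdm3a, a histone demethylase (1.65 ± 0.18), Ddit4, an inhibitor of mTORC1 (1.64 ± 0.20), Ero1a, an ER oxidase (1.19 ± 0.15), and Ndrg1 (1.16 ± 0.21), and the HIF hydroxylase gene Egln1 fell by 0.96 on the log2 scale, being named after its value was seen. At 8 h the same 4 genes were called, with Ero1a at 1.82 ± 0.15 and Ddit4 at 1.75 ± 0.20, and the fifth was Hmox1, heme oxygenase 1 (0.68 ± 0.15), named after its value was seen. Ddit4, Ero1a and Ndrg1 are known to respond to ER stress or ATF4 as well as to hypoxia. The 4 h calls of Ndrg1, Ero1a and Egln1 and the 8 h calls of Kdm3a and Hmox1 were lost when 1 array was left out (adjusted p at most 0.133, 0.0691, 0.182, 0.0593 and 0.160), and those of Kdm3a at 4 h, Ddit4 at both times, and Ero1a and Ndrg1 at 8 h were kept. The difference of responses, AA minus SS, was called at 8 h for Ddit4 (-2.11), Ero1a (-1.59) and Ndrg1 (-1.69), against 2.08% of all probe sets. At 4 h it was called for 0 of 32, against 0.484% of all. Each of the 3 calls at 8 h was lost when 1 of several arrays was left out. In AA cells 0 of 32 were called at either time. Between untreated lines 5 of the 32 were lower and 3 higher in AA than in SS cells, against 12.5% of all probe sets called. The 4 with the smallest p were Bnip3 (1.47 ± 0.18), Ndrg1 (-1.71 ± 0.21), Hmox1 (-1.18 ± 0.15) and Bhlhe40 (-1.23 ± 0.17). Their part in the Vegfa difference between these lines was not tested.

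Other regulators of blood vessel growth were listed, mostly secreted, with the receptor gene Tek among them. Of the 21 on the array, 5 fell and 0 rose in SS cells at 8 h, and the rest were not called. The list median was -0.74 against 0.04 over all probe sets, of which 326 of 12384 fell and 610 rose. The 5 were Tgfb2 (-1.48 ± 0.16) and Tgfb3 (-1.10 ± 0.18), which encode TGF-beta ligands, the chemokine Cxcl12 (-1.33 ± 0.22), the fibroblast growth factor Fgf7 (-1.15 ± 0.20) and the matrix protein Thbs2 (-1.02 ± 0.21), the last named after its value was seen. At 4 h 1 of 21, Cxcl12, fell, and 4.76% of all probe sets were called. The Cxcl12 call at 4 h was lost without the first untreated SS array or either 4 h array. At 8 h the call of Tgfb2 was lost when all 24 arrays were fitted together. Of these 8 h calls only that of Tgfb2 was kept whichever array was left out, and the others had adjusted p of up to 0.0651 (Tgfb3), 0.0937 (Cxcl12), 0.0949 (Fgf7) and 0.115 (Thbs2). In untreated AA cells 7 of the 21 were lower than in SS cells and 2 higher, with a median of -0.55. Of all 12384 probe sets 844 were lower and 708 higher, which is 12.5% called, with a median of 0.08. Among the called genes of the list were Tgfb1 (-2.28 ± 0.19), Tgfa (-1.78 ± 0.23), Ereg (-1.96 ± 0.30) and, in the other direction, the vasoconstrictor gene Edn1 (1.35 ± 0.19). Of 15 signalling genes downstream of the receptors, Akt1 fell and Map2k1 rose in SS cells at both times, with 0 others called. Over all probe sets 4.76% were called at 4 h and 7.56% at 8 h. Akt1 and Map2k1 changed by -1.02 and 0.86 at 4 h and by -0.92 and 1.23 at 8 h. These calls were lost when 1 array was left out, with adjusted p of up to 0.0968, 0.211, 0.0890 and 0.0634. No tested gene of these lists was called in a tunicamycin response, apart from the stress response genes used as a check. Floor values left 25 of 32 HIF genes and 11 of 21 other regulators tested there. They left 11 of 15 signalling genes, 7 of 9 processing and binding genes and 3 of 9 semaphorins and plexins. Of all probe sets 0.839%, 0.42% and 0% were called in wild-type, ATF4-/- and PERK-/- cells. In wild-type cells 6 of the 25 HIF genes (4 higher, 2 lower) and 792 of all 7387 probe sets had an unadjusted limma p under 0.05.

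Across the 24 arrays, with each set's own mean removed, the probe sets of other genes most like each member were ranked by Pearson r among 6534 candidates, as a description. The arrays share lines and treatments, so these values follow the group structure. Vegfa was nearest to Agfg1 (r = 0.934), Ylpm1 (0.934), Pkp1 (0.932), Plekha5 (0.925) and Rnf149 (0.920). Nrp1 was nearest to Has2 (0.879), Rcn1 (0.836) and F2r (0.828), and Vegfc to Epha2 (0.923), Eif3a (0.918) and Fbxw11 (0.917). The nearest to Pdgfa were Zeb1 (0.874), Vasp (0.870) and Ago2 (0.868), to Vegfb Coq7 (0.803), Rpp25l (0.787) and Mybl2 (0.775), and to Pdgfb Nfkbiz (0.738), Dync1i1 (0.731) and Cxcl2 (0.714). Among the members on the 12 Fv2E-PERK arrays, Vegfa went with Vegfc (r = 0.944) and against Vegfb (r = -0.950), and its r with Nrp1 on 92773_at was 0.178. On the 12 tunicamycin arrays Vegfa had r = 0.702 with Nrp1 on the same probe set and 0.791 with Pdgfa.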

How the data were processed

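The authors' deposited values give a single number for each probe set on each array. The values were read as a linear ratio to each probe set's median over 24 arrays, since that median was within 0.01 of 1 for 91.5% of the deposited probe sets. How images were read, summarised and scaled was not given in the sources used here. The original brightness scale and how arrays were centred are thus unknown. After 66 control probe sets were left out, 12422 remained, of which 10833 had 1 gene symbol, 396 several and 1193 none.

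limma 3.58.1 (R 4.3.3, data.table package version 1.17.8) fitted group means to log2(ratio + 0.25) in each set of 12 arrays apart, leaving 6 residual degrees of freedom, with a trended prior. Only probe sets never at the floor of 0.01 in that set were tested. Tests were two-sided, with Benjamini-Hochberg adjustment over all tested probe sets and a threshold of 0.05. A fold divides 1 group's mean ratio by another's, and log2 changes understate the change of low values. The test was tried on simulated data.

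The members and lists were chosen with earlier results of these data known, and the 8 h to 4 h comparison was added after member values were seen. Named were the members in every comparison, up to 4 called genes per list and comparison with the smallest p, 4 stress response genes, and the nearest genes in pattern (5 for Vegfa, 3 for the others). Calls not described above include Sparc in the AA minus SS response, 1.63 at 4 h and 1.81 at 8 h. Tgfb2 (1.37), Tgfb3 (1.29), Akt1 (1.16) and Map2k1 (-1.66) were called in that response at 8 h. Sparc was also called in untreated PERK-/- minus wild type (-1.04). Map2k1 was called in untreated AA minus SS (1.44), and Vegfd (-1.88) and Tgfb2 (-1.69) in the 8 h to 4 h step. All but the Map2k1 call in untreated cells were lost on leaving out 1 of several arrays. Where a gene had several probe sets, the choice went to fewest floor values, next a plain suffix, next the lowest number. Alternatives were pseudocounts of 0.1 and 0.5, no filter, median centring, quantile normalization, an untrended prior, a replicate block, a fit of all 24 arrays, and leaving out each array in turn.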

Additional observations from a re-analysis of the deposited data

Results flagged for a closer look

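The response of Nrp1 to 8 h of AP20187 differed between the lines. The interaction, AA minus SS, was 2.40 on probe set 92773_at and 2.12 on 95016_at, with both passing the limma test of the difference. Pdgfa moved in opposite directions on all arrays at 4 h, with a ratio of treated to untreated group means of 0.736 in SS and 1.27 in AA cells. Its interaction was tested and did not pass (limma adjusted p = 0.297).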

How the results depend on the processing

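Of 163 recomputed values of the 13 called member changes, 139 kept the call, 24 lost it and 0 changed sign. Member probe sets called between untreated PERK-/- and wild-type cells numbered 1, but 0 with a pseudocount of 0.5, no filter, quantile normalization or an untrended prior, and 3 in the 24-array fit. Between 8 h and 4 h in SS cells 1 was called, and 0 with a pseudocount of 0.1, quantile normalization, an untrended prior or the replicate block. Leaving out 1 array gave 0 to 1 for the PERK-/- difference, 0 for the 8 h to 4 h step, 0 to 1 for SS cells at 4 h (2 with all arrays) and 1 to 2 for the AA minus SS response at 8 h. The replicate block changed no other member call. Whether replicate numbers pair the arrays is not known. Between groups, deviations of same-numbered arrays from their group means correlated at most weakly, which does not settle it. The range was -0.194 to 0.207 in the tunicamycin set and -0.0756 to 0.128 in the Fv2E-PERK set. Of 15 pairs of groups in each set, 3 and 1 exceeded 0.1. Quantile normalization called Pdgfb between untreated AA and SS cells (adjusted p = 0.0423). Of uncalled member changes 3 were called under some setting, and 35 turned sign under some setting. Of 73 calls of listed genes 51 were lost under some setting, 50 of them on leaving out an array, and 0 turned sign.

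Over all probe sets the 62 calls of wild-type cells on tunicamycin ranged from 28 (no filter) to 207 (24-array fit), and from 3 to 47 without 1 array. The 31 calls of ATF4-/- cells became 66 with quantile normalization and 85 in the 24-array fit, and the share that rose was 93.5%, against 77.3% with quantile normalization. The 24-array fit also gave 366 for untreated PERK-/- minus wild type (121), 62 for ATF4-/- minus wild type (7), 394 for the AA minus SS response at 8 h (258), 95 for that at 4 h (60), 167 for the 8 h to 4 h step (63), 17 for PERK-/- cells on tunicamycin (0) and 34 for the PERK-/- minus wild-type response (0). Quantile normalization gave 614 for SS cells at 8 h (936) and 150 for the AA minus SS response at 8 h. The replicate block gave 11 for the 8 h to 4 h step, 35 for the AA minus SS response at 4 h and 170 for that at 8 h. Without 1 array SS cells had 70 to 257 calls at 4 h (589 with all) and 164 to 448 at 8 h, the AA minus SS response at 8 h had 21 to 515, untreated AA minus SS had 594 to 924 (1552), AA cells at 8 h had up to 46 (0), the AA minus SS response at 4 h had 1 to 13 (60), the 8 h to 4 h step had 0 (63), ATF4-/- cells on tunicamycin had 0 to 8 (31), untreated PERK-/- minus wild type had 38 to 60 (121) and untreated ATF4-/- minus wild type had 0 to 6 (7). The share that rose in the 8 h to 4 h step was 36.5%, against 26.2% with median centring. The cause of these shifts was not tested. Signal over background is unknown, and 2 arrays a group limit what could be detected.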
